A study of Mus musculus with 17 samples.

Results

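Clones of mouse tumour cells labelled as knockout for p53 were compared with the kind of cell from which the tumours arose, bone marrow mesenchymal stem cells (MSC) that carry the R172H form of p53. The groups were taken from the library titles, which gave 2 knockout clone libraries (KO clones) and 3 MSC libraries, 5 of the 17 libraries of the series. All cells came from R172H knock-in C57BL/6 mice, at passages 2 to 20, and none was treated. The MSC were grown from bone marrow of femurs and tibias in MSC medium, and tumour-derived cells on agar-coated plates with 1000 units/mL of leukaemia inhibitory factor (LIF). For reference the text gives the values of 2 libraries of control clones that kept mutant p53 (Mut clones). It also gives those of 6 first-generation tumour lines (TL1) and 4 second-generation lines (TL2). TL2 were grown from tumours that TL1 cells formed on injection. TL1 and TL2 libraries are named by the number in their title, with a letter where a generation holds that number more than once. KO clone 1 and 2 and Mut clone 1 and 2 name libraries. Their titles hold no clone number, so whether the 2 libraries of a kind are different clones is not given. The titles give all 4 clone libraries as first-generation, but not from which tumour line. The labels do not say how the gene was disrupted, nor whether libraries of 1 group stem from different mice or cultures. A p-value here thus covers only library-to-library spread, which could be technical.

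p53 is a transcription factor that restrains growth and removes damaged cells. The R172H form, the mouse counterpart of a common human hotspot mutation, cannot activate the normal targets and accumulates in tumour cells. MSC are stromal cells of the marrow that make collagen-rich matrix and CXCL12, and that can turn into bone, fat or cartilage cells. The comparison asks what stays different from MSC in tumour cells once mutant p53 is gone.

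Total counts were 12643520 to 13783786 in MSC, 13321954 and 13580595 in the KO clones, and 12215025 to 15962341 over all libraries. Levels are given as CPM, counts scaled to a common library size after TMM normalisation. Correlations of log2 CPM were 0.965 to 0.974 between MSC libraries, 0.968 between the KO clones, and 0.816 to 0.856 between KO clones and MSC. The library most like each KO clone was TL1 2b, with correlations of 0.922 and 0.926, and the library most like each Mut clone was TL2 3, with 0.96 and 0.951. KO clones and Mut clones correlated at 0.826 to 0.836, so a difference between these clones and a difference between parent lines cannot be told apart. The same holds for culture conditions and the comparison of clones with MSC. Rn45s, a ribosomal RNA precursor, made up 4.14% of all counts in KO clone 2 and 0.476% to 1.59% elsewhere.

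The labelled cell types were checked by defining markers. Among stromal markers, Pdgfra, Pdgfrb, Thy1, Ly6a and Cxcl12 had counts in all 3 MSC libraries. Pdgfra, a receptor for platelet-derived growth factor, was at 98.4, 151 and 171 CPM in MSC and at 1.57 and 1.67 CPM in the KO clones. Markers of other cell types were near 0 in KO clones and MSC: Ptprc and Emr1 at 0 CPM in both KO clones and at most 0.418 and 0.334 CPM in MSC, Pecam1 at 0.153 to 0.637 CPM, Cdh5 at 0 to 0.318 CPM, Epcam at 0 to 0.0836 CPM and Cdh1 at 0.167 to 1.62 CPM. The macrophage receptor Csf1r was at 1.78 to 3.05 CPM in MSC and at 1.8 and 1.99 CPM in the KO clones. Of the listed macrophage and haematopoietic markers 6 of 21 could be tested and 1 was lower in KO clones. Of endothelial markers 2 of 10 could be tested and 1 was lower, and of epithelial markers 6 of 17 and 2 higher. Over all tested genes 16% were lower and 13.5% higher, and lists with so few tested members are too small to set against those shares. The summed level of these lists was 12.9 to 41.1, 2.91 to 7.4 and 6.26 to 116 CPM in MSC and 8.51 to 8.94, 0.863 to 2.15 and 13.5 to 15.5 CPM in KO clones. The part of other cell types in the results was not tested beyond these values.

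Trp53, which encodes p53 (chromosome 11, 69580348 to 69591873, GRCm38.p6), was the check of the knockout. It was at 263, 204 and 198 CPM in MSC, at 357 and 278 CPM in Mut clones, and at 80.5 and 89.5 CPM in KO clones. Both KO clones lay below every other library, since TL1 ran from 123 to 298 CPM with a median of 239 and TL2 from 177 to 311. The fall was -1.38 on the log2 scale against MSC (SE 0.20, edgeR adjusted p = 0.00287) and -1.89 against Mut clones (SE 0.22, edgeR adjusted p = 0.00106). Counts per gene do not show whether the remaining RNA encodes a protein.

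**Figure D1:**
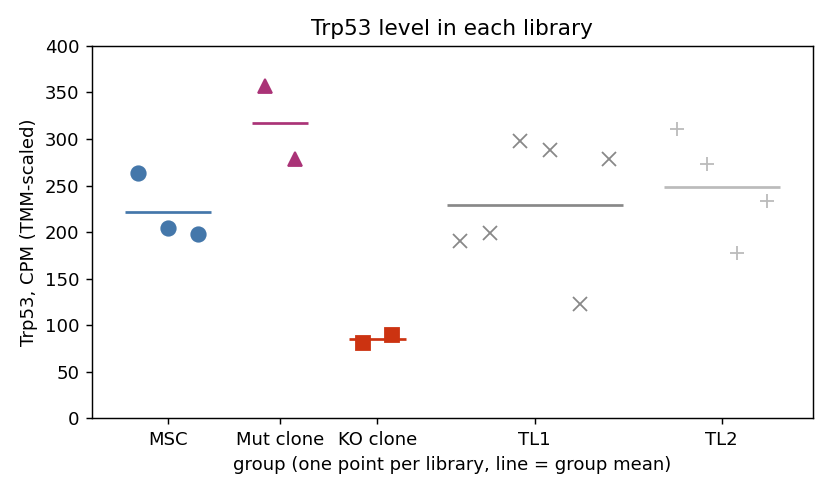
Trp53 level in CPM (vertical axis, linear) for each library, by group on the horizontal axis, with a line at each group mean. The 2 KO clones, at 80.5 and 89.5 CPM, lie below all 15 other libraries.

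Over 13008 genes tested, 1756 were higher in KO clones than in MSC (13.5% of those tested) and 2078 were lower (16%), by edgeR's quasi-likelihood test at an adjusted p under 0.05. The KO clones lay above all MSC libraries for 29.7% of tested genes and below all of them for 32.8%, called or not. The median log2 difference over all tested genes was -0.03. By the same test the KO clones had 2146 genes higher (16.5%) and 1867 lower (14.4%) than Mut clones, and the Mut clones had 2282 higher (17.5%) and 2825 lower (21.7%) than MSC. With scaling by library totals alone, 1837 were higher and 2415 lower in KO clones than in Mut clones. In Mut clones against MSC, that scaling gave 2771 higher and 2476 lower. These comparisons share libraries, so their calls are given side by side. Genes were grouped into 40 lists. Among lists with at least 13 tested members, skeletal muscle and Notch pathway genes had the largest share called higher in KO clones than in MSC. Interferon-stimulated genes, collagens and adipogenic genes had the largest share called lower. In bulk libraries, fewer cells of a type and less RNA per cell cannot be told apart. The counts depend on which libraries enter the fit: with all 17 libraries in 1 fit, 400 were called higher and 424 lower.

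**Figure D2:**
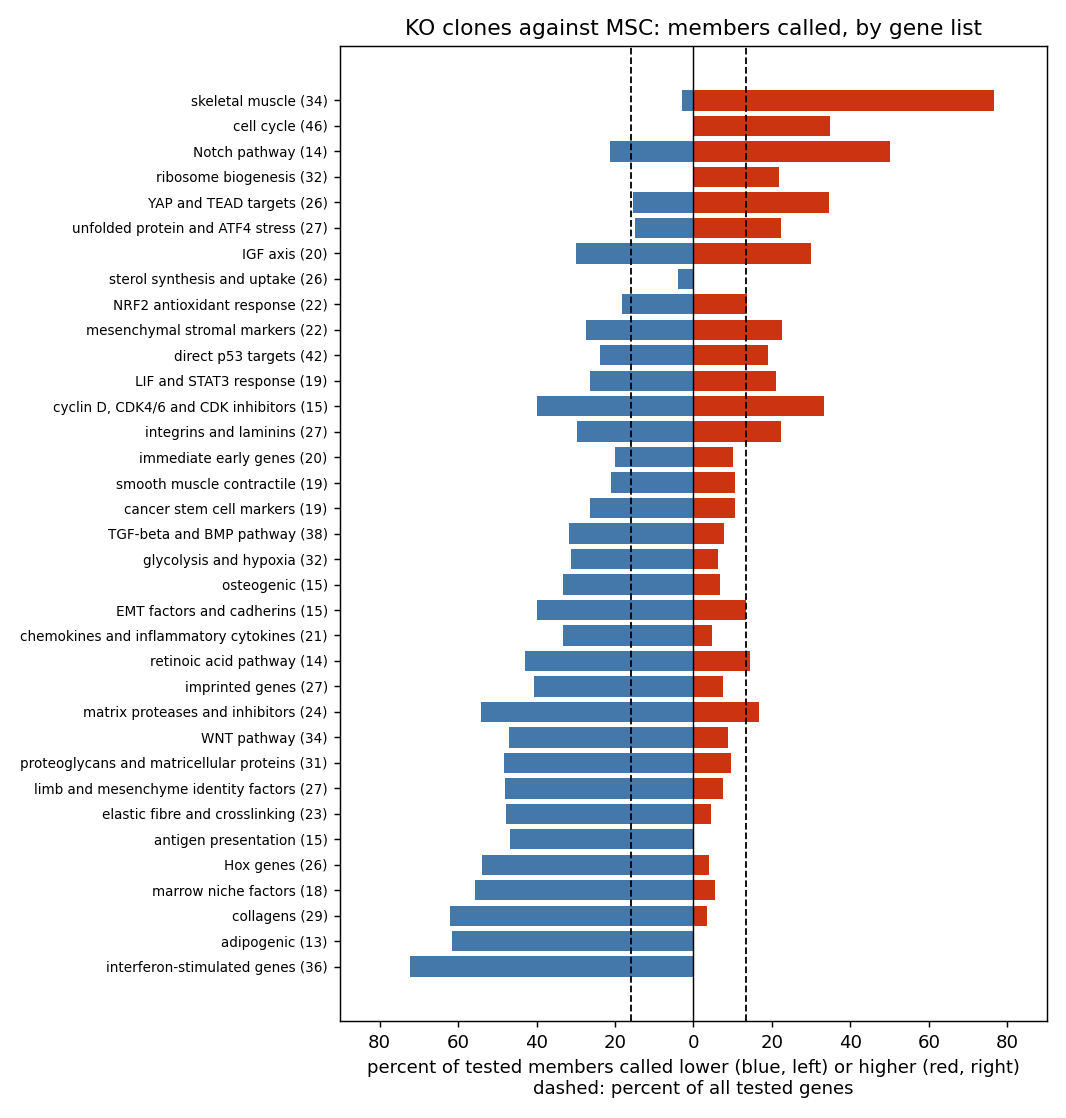
Percent of tested members called lower (left, blue) or higher (right, red) in KO clones than in MSC, for each list with at least 13 tested members (number in brackets), with dashed lines at the percent over all tested genes, 16% lower and 13.5% higher. Skeletal muscle genes stand at the top with 26 of 34 members higher, and interferon-stimulated genes at the bottom with 26 of 36 lower.

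The KO clones carried a broad skeletal muscle programme that MSC held at low levels. Of 34 skeletal muscle genes tested, 26 were higher in KO clones than in MSC, against a background of 13.5% over all genes, and 1 was lower. The median log2 difference over the list was 5.38, against -0.03 over all tested genes. The summed level of the list was 402 to 516 CPM in MSC, 7179 and 7257 CPM in KO clones, 129 to 157 CPM in Mut clones, 550 to 3738 CPM in TL1 and 211 to 986 CPM in TL2. The KO clones thus lay above every tumour line and the Mut clones below every MSC library.

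The order of the programme starts with the myogenic determination factors, which commit cells to the muscle fate. Myod1 was at 18.1, 4.69 and 0.458 CPM in MSC and at 326 and 331 CPM in KO clones, a rise of 5.41 on the log2 scale (SE 1.08, edgeR adjusted p = 0.0131). It was at 0 and 0.158 CPM in Mut clones, and in TL1 it ran from 36.1 to 571 CPM with a median of 123, so that tumour lines overlapped the KO clones. Myf5, its partner in determination, was at 0.418, 6.54 and 0 CPM in MSC, at 88.9 and 60.9 CPM in KO clones and at 0 CPM in both Mut clones, with a rise of 5.02 against MSC (SE 1.36, edgeR adjusted p = 0.0423). Myog, the factor that starts terminal differentiation and named here after its values were seen, was at 12, 1.94 and 1.45 CPM in MSC and at 178 and 237 CPM in KO clones (rise of 5.34, SE 0.85, edgeR adjusted p = 0.00619). Among the tumour lines Myog reached 267 CPM in TL1 3a and at most 21.3 CPM in the other 9. Pax7, the mark of muscle stem cells, stayed below 1 CPM in all MSC and KO clone libraries and was not tested.

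Further members of the list act in cell fusion, adhesion and the nerve-muscle synapse. Tmem8c, the fusion factor also called myomaker, was at 6.02, 1.29 and 0.229 CPM in MSC and at 152 and 196 CPM in KO clones, above the highest tumour line at 60.7 CPM. Chrna1, the alpha subunit of the muscle acetylcholine receptor, was at 27.9, 20.5 and 2.82 CPM in MSC and at 1310 and 872 CPM in KO clones. Cdh15, the muscle cadherin, was at 9.02, 5.65 and 0.458 CPM in MSC and at 1157 and 1126 CPM in KO clones, where the highest tumour line had 393 CPM. Chrna1 and Cdh15 were also named after their values were seen. The rises of Tmem8c, Chrna1 and Cdh15 were 6.13, 6.00 and 7.83 (SE 0.99, 0.84 and 0.91, edgeR adjusted p = 0.00969, 0.00398 and 0.00213). For all 3 genes the KO clones did not overlap any other group.

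Sarcomere genes rose as well. Tnnc1, the calcium sensor of slow muscle and heart (chromosome 14, 31208312 to 31211729), was at 5.26, 3.07 and 2.59 CPM in MSC and at 416 and 431 CPM in KO clones, a rise of 6.86 (SE 0.35, edgeR adjusted p = 6.11e-05). It was at 0.434 and 1.03 CPM in Mut clones and at most 58.4 CPM in a tumour line. Acta1, skeletal alpha actin (chromosome 8, 123891758 to 123894775), was at 24.7, 9.61 and 11 CPM in MSC and at 1106 and 1531 CPM in KO clones, a rise of 6.45 (SE 0.45, edgeR adjusted p = 0.000268). Its tumour line values ran from 0.772 to 490 CPM. Myl1, a fast myosin light chain, was at 1.75, 1.94 and 0.61 CPM in MSC and at 389 and 209 CPM in KO clones. Myh1, an adult fast myosin heavy chain, was at 2.92, 0.969 and 0.229 CPM in MSC and at 481 and 309 CPM in KO clones, a rise of 8.18 (SE 0.76, edgeR adjusted p = 0.000997). Myh2 and Myh13, heavy chains of fast and of extraocular muscle, had no count in any MSC or Mut clone library. Myh2 stood at 15.8 and 10.2 CPM in KO clones, at least 162-fold higher than MSC, and Myh13 at 5.02 and 22.9 CPM, at least 174-fold higher, both against a floor of 3 counts over the 3 MSC libraries. Further muscle genes of the same kind were among the largest rises of the whole comparison: Myom2 (0.752, 0.485 and 0.0763 CPM in MSC, 183 and 139 CPM in KO clones), Smpx and Srpk3.

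Some listed muscle genes did not pass the test for a rise. Mef2c, a partner of the determination factors, was at 37.1, 22.7 and 57.2 CPM in MSC and at 91.2 and 29 CPM in KO clones, with overlap between the groups. Eya2, a transcriptional cofactor, moved the other way: 81.4, 78.6 and 64.1 CPM in MSC, and 1 count in all over both KO clones (ratio of MSC to KO clone 1884, 95% counting interval 338 to 74445). It had no count in Mut clones and at most 1.19 CPM in a tumour line. Mef2c was named after their values were seen.

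**Figure D3:**
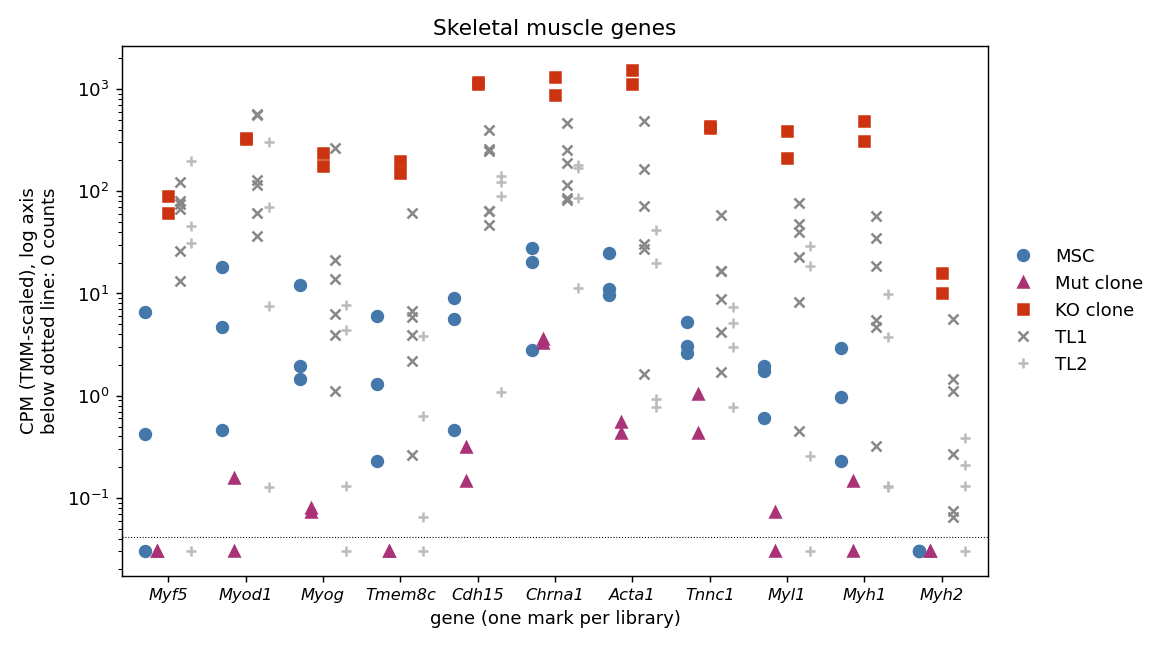
CPM of 11 skeletal muscle genes in each library (vertical log axis, marks below the dotted line have 0 counts, 1 mark per library, shape and colour by group). The KO clones (red squares) lie above all MSC libraries (blue circles) for each gene, at 1106 and 1531 CPM for Acta1, and the Mut clones (triangles) lie at or near 0 for most.

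The count of 26 fell to 11 with all 17 libraries in the fit and was 24 to 26 when 1 of the 7 libraries was left out. Myosin heavy chains and actins are near-identical families, so the split of reads among Myh1, Myh2 and Myh13, or among Acta1, Actc1 and Acta2, is uncertain.

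Promoters of 2 sarcomere genes and 2 interferon-stimulated genes are printed because these lists moved in opposite directions and their known regulators read different short motifs. Each is the 250 bases before the RefSeq start in GRCm38.p6, 5′ to 3′ on the gene's strand. In Tnnc1 (chr14:31208062-31208311, plus strand) and Acta1 (chr8:123894776-123895025, minus strand) capitals mark the E-box CANNTG, the site read by MYOD1 and MYOG and by many other factors. In Igtp (chr11:58199306-58199555, plus strand) and Isg15 (chr4:156200819-156201068, minus strand) capitals mark GAAANNGAA, part of the core of the interferon-stimulated response element read by IRF9 and its partners. Of the 3 matches in Isg15, neighbouring ones overlap.
Tnnc1: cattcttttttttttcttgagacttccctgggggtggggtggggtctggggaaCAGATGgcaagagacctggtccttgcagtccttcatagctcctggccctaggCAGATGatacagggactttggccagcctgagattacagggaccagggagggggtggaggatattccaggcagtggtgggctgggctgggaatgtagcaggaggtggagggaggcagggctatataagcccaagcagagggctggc
Acta1: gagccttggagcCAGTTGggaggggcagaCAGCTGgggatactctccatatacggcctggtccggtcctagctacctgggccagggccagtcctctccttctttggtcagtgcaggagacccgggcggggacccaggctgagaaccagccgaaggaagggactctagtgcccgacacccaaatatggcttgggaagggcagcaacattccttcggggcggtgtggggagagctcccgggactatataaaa
Igtp: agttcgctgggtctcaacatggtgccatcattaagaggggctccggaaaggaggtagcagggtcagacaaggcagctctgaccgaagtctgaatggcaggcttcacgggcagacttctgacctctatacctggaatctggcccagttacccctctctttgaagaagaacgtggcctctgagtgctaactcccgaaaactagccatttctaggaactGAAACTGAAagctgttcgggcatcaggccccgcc
Isg15: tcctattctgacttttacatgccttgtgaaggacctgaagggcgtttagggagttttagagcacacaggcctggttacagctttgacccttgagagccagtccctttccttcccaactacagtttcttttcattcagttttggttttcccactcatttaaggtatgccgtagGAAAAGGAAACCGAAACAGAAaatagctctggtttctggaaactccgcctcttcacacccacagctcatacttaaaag

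On both strands, 18 of 22 promoter windows of skeletal muscle genes called higher held CANNTG, 81.8%, against 66.2% of 32851 windows over all genes. The form CAGCTG, which is one of the CANNTG sequences, was in 36.4% of those 22 windows and in 13% of all. GAAANNGAA was in 10 of 19 windows of interferon-stimulated genes called lower, 52.6%, against 7.13% of all, and in 2 of the 22 muscle windows. The windows belong to 20 of the 26 muscle genes and 17 of the 26 interferon genes that matched the promoter table by symbol. A match of letters is a description and not a binding site. Members of the same lists that were not called were not counted apart. The shares thus describe the lists and cannot tell whether a motif goes with the calls.

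Interferon-stimulated genes, which restrict viruses and are switched on by interferon signalling, were lower in KO clones than in MSC. Of 36 tested, 26 were called lower, against 16% over all genes, and 0 higher, with 35 of 36 log2 differences below 0 and a median of -3.95. The summed level of the list was 571 to 2420 CPM in MSC, 216 and 221 CPM in KO clones and 3096 to 8367 CPM in Mut clones. In the tumour lines it ran from 399 to 4465 CPM in TL1 and from 305 to 8898 CPM in TL2. Both KO clones thus lay below all other libraries.

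Irf9 was at 38.4, 90 and 106 CPM in MSC and at 9.96 and 7 CPM in KO clones, a fall of -3.20 on the log2 scale (SE 0.48, edgeR adjusted p = 0.00389). It was at 90.4 and 67.1 CPM in Mut clones. Ddx58, the RNA sensor RIG-I, was at 55.7, 185 and 141 CPM in MSC and at 12.7 and 13.5 CPM in KO clones, a fall of -3.27 (SE 0.60, edgeR adjusted p = 0.00987), and at 361 and 169 CPM in Mut clones. Igtp, an interferon-induced GTPase, was at 6.94, 30.1 and 28.6 CPM in MSC and at 0.235 and 0.477 CPM in KO clones, a fall of -5.90 (SE 1.11, edgeR adjusted p = 0.011). Isg15, a ubiquitin-like modifier named for its promoter, was at 14.7, 138 and 119 CPM in MSC, 2.51 and 2.94 CPM in KO clones and 490 and 218 CPM in Mut clones. Among MSC, library 1 was the lowest for each of these 4 genes, and it still lay above both KO clones. The members that were not lower included Ifit2, at 11.6, 19.9 and 16 CPM in MSC and 24.4 and 24.7 CPM in KO clones (edgeR adjusted p = 0.265), and the chemokine Cxcl10, at 3.18, 15.2 and 2.98 CPM in MSC, 6.98 and 3.58 CPM in KO clones, and 517 and 436 CPM in Mut clones.

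**Figure D4:**
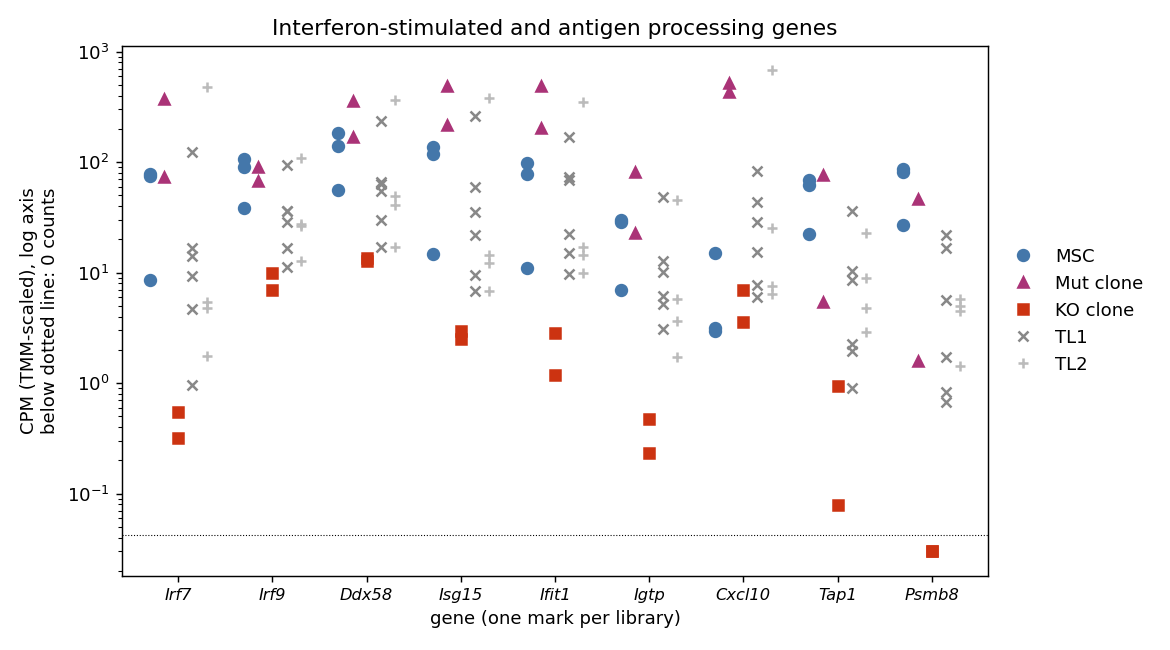
CPM of 7 interferon-stimulated genes and of Tap1 and Psmb8 in each library (vertical log axis, marks below the dotted line have 0 counts, 1 mark per library). For most genes the KO clones (red squares) are the lowest of the groups, as for Irf9 at 9.96 and 7 CPM, while Cxcl10 overlaps between KO clones and MSC.

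Some genes that process antigen for display on MHC class I were also lower. Of 15 tested, 7 were lower (46.7%) and 0 higher, against 16% and 13.5% over all genes. Psmb8, a subunit of the immunoproteasome, was at 27.2, 86.2 and 80.7 CPM in MSC and had no count in KO clones, at least 552-fold lower. Tap1 and Tap2, which carry peptides into the endoplasmic reticulum, were at 22.3, 62.7 and 69.1 CPM and at 52.3, 71.6 and 90.7 CPM in MSC, and at 0.941 and 0.0796 CPM and 4.71 and 1.91 CPM in KO clones. Tap1 is also a member of the list of direct p53 targets. Mut clone 2 also had low values of Psmb8 and Tap1, 1.58 and 5.45 CPM, against 46.8 and 76.2 CPM in Mut clone 1. These counts rest on few libraries. Without KO clone 2, 1 interferon-stimulated gene and 0 antigen presentation genes were called lower, without KO clone 1, 3 and 0, without MSC 3, 6 and 1, and without MSC 2, 14 and 3. With all 17 libraries, 1 and 3 were called.

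Many marrow niche genes were lower in KO clones. Of 18 niche factors tested, 10 were lower (55.6%) and 1 higher (5.56%), against 16% and 13.5% over all genes. Those counts became 6 lower and 0 higher with all 17 libraries in the fit. Cxcl12, the chemokine that holds blood stem cells in the marrow, was at 3185, 2505 and 6425 CPM in MSC, 159 and 518 CPM in KO clones and 13.2 and 10.4 CPM in Mut clones. Against MSC it fell by 3.58 on the log2 scale in KO clones (SE 0.67, edgeR adjusted p = 0.0103), and against Mut clones the KO clones were higher by 4.85 (SE 0.74, edgeR adjusted p = 0.00467). Foxc1, a factor that maintains niche cells, was at 264, 180 and 231 CPM in MSC and at 23.5 and 20.6 CPM in KO clones, and Jag1, a Notch ligand, at 68.8, 34.4 and 84.1 CPM and at 5.18 and 4.3 CPM. The 1 niche gene that rose was Igfbp2, an IGF-binding protein, from 13, 4.85 and 7.86 CPM to 392 and 193 CPM.

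Of 22 mesenchymal stromal markers tested, 6 were lower (27.3%) and 5 higher (22.7%), against 16% and 13.5% over all genes. Those counts became 4 lower and 0 higher with all 17 libraries in the fit. Pdgfra fell by 6.42 on the log2 scale (SE 0.34, edgeR adjusted p = 6.11e-05), and Eng, the TGF-beta co-receptor endoglin, was at 67.9, 55.8 and 98.4 CPM in MSC and at 2.43 and 3.02 CPM in KO clones. Cd200, an immune-inhibitory ligand, rose from 22.1, 21.7 and 34.5 CPM to 188 and 551 CPM, and Mcam, the adhesion molecule CD146, from 15, 16.1 and 7.55 CPM to 129 and 65.1 CPM. Cd44, the hyaluronan receptor, was at 190, 279 and 155 CPM in MSC and at 465 and 386 CPM in KO clones, close to the 498 and 396 CPM of Mut clones. Without MSC 1, 2 of these markers were called higher, without KO clone 2 also 2, and without KO clone 1, 3.

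Of the lineages that MSC can form, 61.5% of tested fat genes and 33.3% of bone genes were called lower, against 16% over all genes. Of cartilage genes 11.1% were called lower, under that share. Of 13 adipogenic genes tested, 8 were lower and 0 higher, with a median of -5.25, or -4.76 when genes at 0 counts are set at their bound. The summed level of the list differed less, at 980 to 1672 CPM in MSC and 828 and 893 CPM in KO clones. In Mut clones it was 912 to 1005 CPM. Lpl, the lipase that supplies fat cells with fatty acids, was at 571, 248 and 563 CPM in MSC and at 3.53 and 4.22 CPM in KO clones, a fall of -6.89 (SE 0.55, edgeR adjusted p = 0.000395). Mut clones, at 3.11 and 1.58 CPM, and all tumour lines, at 0.375 to 6.36 CPM, were also low. Cebpa, a master factor of fat cells, was at 241, 78.5 and 207 CPM in MSC and at 0.627 and 0.716 CPM in KO clones, below every tumour line (6.83 to 82.5 CPM). Of 15 osteogenic genes 5 were lower and 1 higher. The fit of all 17 libraries called 5 adipogenic genes and 1 osteogenic gene lower, and 0 of either list higher. Alpl, the phosphatase of bone mineralisation, was at 56.8, 114 and 306 CPM in MSC and had 3 counts over both KO clones (ratio of MSC to KO clone 1376, 95% counting interval 471 to 6674). Of 9 chondrogenic genes 1 was lower, Col2a1, cartilage collagen, at 202, 39.1 and 392 CPM in MSC and 0 and 0.0796 CPM in KO clones. Leaving out KO clone 1 left 1 osteogenic gene called lower, and leaving out KO clone 2 left 2.

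Many genes of the extracellular matrix were lower in KO clones. Of 29 collagen genes tested, 18 were lower (62.1%) and 1 higher (3.45%), against 16% and 13.5% over all genes. Those counts became 4 lower and 0 higher with all 17 libraries in the fit. The summed collagen level was 26622 to 39535 CPM in MSC against 5794 and 6947 CPM in KO clones. Col1a1, the main fibrillar collagen, was at 7208, 6880 and 9104 CPM in MSC, 677 and 829 CPM in KO clones, and 9.11 and 73.4 CPM in Mut clones. It fell by 3.36 on the log2 scale against MSC (SE 0.82, edgeR adjusted p = 0.0252) and was higher by 4.21 against Mut clones (SE 0.89, edgeR adjusted p = 0.0144). Its partner chain Col1a2 was at 6118, 7562 and 8933 CPM in MSC, 1138 and 747 CPM in KO clones and 1389 and 834 CPM in Mut clones, so the 2 chains differed in how the Mut clones stood. Col4a5, a basement membrane collagen, was at 74.6, 70.8 and 101 CPM in MSC and 181 and 142 CPM in Mut clones, and had 3 counts over the KO clones. It was also below 1 CPM in TL1 1b, TL2 1 and TL1 3a. Without KO clone 1 or without KO clone 2, 10 collagens were called lower.

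Elastic fibre and crosslinking genes had 11 of 23 members lower (47.8%) and 1 higher (4.35%), against 16% and 13.5% over all genes. The fit of all 17 libraries called 2 lower and 1 higher. Fbn1, the fibrillin of microfibrils, was at 926, 701 and 1096 CPM in MSC and at 116 and 151 CPM in KO clones. Loxl4, a crosslinking oxidase, rose from 18.5, 35.6 and 15.3 CPM to 71.8 CPM in both. Among proteoglycans and matricellular proteins 15 of 31 were lower (48.4%) and 3 higher (9.68%), and 3 and 0 with all 17 libraries in the fit. Thbs2, a thrombospondin, was at 1663, 2959 and 2374 CPM in MSC and at 224 and 255 CPM in KO clones. Postn, periostin, went the other way, from 463, 848 and 734 CPM to 2227 and 1231 CPM (rise of 1.35, SE 0.31, edgeR adjusted p = 0.0165), while it was below 1 CPM in both Mut clones. Wisp1, a secreted WNT target also called Ccn4, rose from 140, 128 and 75.1 CPM to 308 and 445 CPM. Without MSC 3 or without KO clone 2, 9 of the proteoglycans and matricellular proteins were called lower.

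Matrix proteases had 13 of 24 members lower (54.2%) and 4 higher (16.7%), against 16% and 13.5% over all genes. Those counts became 2 lower and 1 higher with all 17 libraries in the fit. The plasminogen activator Plau rose from 65.2, 67 and 53.7 CPM to 305 and 338 CPM (2.38, SE 0.19, edgeR adjusted p = 0.000295), and its receptor Plaur from 39.3, 38.2 and 29.9 CPM to 72.1 and 128 CPM. Ctsk, a collagen-degrading cathepsin, fell from 54.6, 34.4 and 85.7 CPM to 0.314 and 0.0796 CPM. Of 27 integrin and laminin genes 6 were higher (22.2%) and 8 lower (29.6%), and 3 and 1 with all 17 libraries in the fit. Itga7, the laminin-binding integrin of muscle, was at 23.3, 51.1 and 9 CPM in MSC and at 1032 and 906 CPM in KO clones, and Itgb4 and Lamb3, which form epithelial attachments, rose from at most 1.68 and 0.323 CPM to 9.65 and 21.6 CPM and to 7.14 and 25.1 CPM. Without KO clone 2, 7 proteases were called lower, and without MSC 1 or KO clone 1, 5 integrins and laminins.

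Of 19 smooth muscle contractile genes tested, 2 were higher (10.5%) and 4 lower (21.1%) than in MSC, near the 13.5% and 16% over all genes, and 14 were higher and 0 lower than in Mut clones (background 16.5% higher). Acta2, smooth muscle actin, was at 6284, 3295 and 4545 CPM in MSC, 2429 and 6651 CPM in KO clones, and 25.2 and 1.58 CPM in Mut clones. Its log2 difference from MSC was -0.05 (SE 0.92, edgeR adjusted p = 0.971), and it was higher than in Mut clones by 8.40 (SE 1.39, edgeR adjusted p = 0.0063). The KO clones differed from each other here. Actg2, Cnn1 and Tagln, contractile or actin-binding genes named after their values were seen, were at 2.9 and 165, 1.18 and 66.5, and 222 and 1418 CPM in KO clones 1 and 2. In MSC they were at 137 to 274, 54.1 to 168 and 954 to 1515 CPM. The 2 higher members were Des, the intermediate filament desmin of all muscle, from 20.2, 62.4 and 2.82 CPM to 1198 and 421 CPM, and Synpo2. Mylk, the kinase of smooth muscle myosin, fell from 270, 212 and 202 CPM to 15.6 and 25.7 CPM. Without KO clone 2, 8 of the smooth muscle genes were called lower than in MSC, and without MSC 1 or MSC 3, 2.

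Many genes that mark position in the body were lower. Of 26 Hox genes tested, 14 were lower (53.8%) and 1 higher (3.85%), against 16% and 13.5% over all genes. Of 27 limb and mesenchyme identity factors 13 were lower (48.1%) and 2 higher (7.41%). The fit of all 17 libraries called 4 Hox genes and 5 identity factors lower, and 0 of either list higher. Pitx1, a factor of hindlimb identity, was at 73.2, 60.3 and 50.7 CPM in MSC and had 1 count over both KO clones (ratio of MSC to KO clone 1546, 95% counting interval 277 to 61094). In Mut clones and all 10 tumour lines it was at most 0.129 CPM. Osr1, a factor of connective tissue, was at 123, 109 and 196 CPM in MSC, at least 120 CPM in both Mut clones, 12.4 to 227 CPM in tumour lines, and 1.65 and 0.716 CPM in KO clones. Hoxc8 and Hoxc6 were at 11.4, 9.53 and 13.9 CPM and at 28.2, 23 and 22.1 CPM in MSC, at 1.88 and 2.63 CPM and at 8.78 and 5.89 CPM in KO clones, and above MSC in both Mut clones. Without KO clone 1, 7 Hox genes were called lower, without MSC 1 also 7, and without MSC 2, 8.

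Of 27 imprinted genes, which are read from 1 parental copy, 11 were lower (40.7%) and 2 higher (7.41%). The shares over all genes were 16% and 13.5%. Calls of imprinted genes became 4 lower and 0 higher with all 17 libraries in the fit. H19, the maternally read RNA beside Igf2 (chromosome 7, 142575530 to 142578146), was at 450, 205 and 258 CPM in MSC and at 0.706 and 0.875 CPM in KO clones, a fall of -8.57 (SE 0.50, edgeR adjusted p = 8.48e-05). Igf2, the paternally read growth factor, was at 174, 47.8 and 366 CPM in MSC and at 1511 and 1673 CPM in KO clones, a rise of 3.02 (SE 0.72, edgeR adjusted p = 0.0237). The Mut clones were low for both, at 0.289 and 0.316 CPM of H19 and 0.0723 and 0.237 CPM of Igf2. Among tumour lines the 2 genes ran over wide ranges, H19 from 0.131 to 5007 CPM and Igf2 from 0.259 to 1739 CPM. Meg3, at 30.1, 143 and 26.4 CPM in MSC, and Ndn, at 49.1, 29.2 and 52.7 CPM, had 0 counts and 1 count over the KO clones. Peg3 rose from 9.28, 2.18 and 1.14 CPM to 133 and 110 CPM. The counting is not stated to use strand, so reads of these genes and of antisense or overlapping partners cannot be told apart. Without KO clone 1, 6 imprinted genes were called lower, and without KO clone 2, 7.

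Genes of Notch, a contact signal between neighbouring cells, were called higher more often than lower. Of 14 tested, 7 were higher (50%) and 3 lower (21.4%), against 13.5% and 16% over all genes. Those counts became 2 higher and 1 lower with all 17 libraries in the fit. The ligand Dll1 was at 2.26, 0.646 and 1.22 CPM in MSC and at 30 and 52.3 CPM in KO clones (rise of 4.90, SE 0.52, edgeR adjusted p = 0.000919). The receptor Notch3 rose from 15.2, 31.4 and 16.8 CPM to 59.4 and 62.2 CPM, and the target Hes1 from 48.7, 33.4 and 41 CPM to 152 and 107 CPM. Hes1 in KO clones lay above all tumour lines, whose highest value was 50.1 CPM. The ligand Jag1 and the receptor Notch2 fell, as did the nuclear effector Rbpj, from 246, 273 and 212 CPM to 120 and 139 CPM. Without KO clone 1, 3 were called higher and 1 lower, and without KO clone 2, 4 and 1.

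Other pathway lists are also read against the 16% lower and 13.5% higher over all genes. The fit of all 17 libraries called fewer members than the counts below. It had 6 WNT genes lower and 1 higher, and 3 and 1 TGF-beta and BMP genes. For retinoic acid genes it had 4 and 0, and for the IGF axis 2 and 1. Of 34 WNT genes 16 were lower and 3 higher, among them the secreted inhibitors Sfrp1, from 220, 323 and 316 CPM to 0.157 and 0.716 CPM, and Dkk3, from 449, 349 and 432 CPM to 2.43 and 3.66 CPM. The WNT effector Tcf7 rose from 5.52, 3.72 and 5.34 CPM to 27.4 and 27 CPM. Of 38 TGF-beta and BMP genes 12 were lower and 3 higher, with Tgfbr3, a co-receptor, falling from 151, 129 and 191 CPM to 7.22 and 10.8 CPM. Of 14 retinoic acid genes 6 were lower and 2 higher, and Dhrs3, which turns retinal back into retinol, fell from 175, 117 and 136 CPM to 4.78 and 5.57 CPM. Of 20 genes of the IGF axis 6 were higher and 6 lower. Igfbp4, an IGF-binding protein, was at 315, 153 and 321 CPM in MSC, 221 and 130 CPM in Mut clones, at least 20 CPM in all tumour lines, and 0.627 and 0.955 CPM in KO clones. Without KO clone 2, 7 TGF-beta and BMP genes were called lower and 2 IGF genes higher.

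Yap1, the coactivator of the Hippo pathway, was at 205, 195 and 173 CPM in MSC and at 2253 and 1333 CPM in KO clones, a rise of 3.23 (SE 0.25, edgeR adjusted p = 0.000241). Its neighbours on chromosome 9, the apoptosis inhibitors Birc2 and Birc3, rose from 17, 16.2 and 15.5 CPM to 186 and 80.1 CPM and from 9.44, 13 and 10.1 CPM to 67.2 and 39.1 CPM. Birc2 lies at 7818226 to 7837131, Birc3 at 7847468 to 7873205 and Yap1 at 7931999 to 8004638. The tumour lines fell apart at this locus: Yap1 was at 1323 to 2644 CPM in TL1 1a, TL1 2a, TL1 2b, TL2 2a and TL2 2b, and at 96.4 to 186 CPM in the other 5. Mut clones, at 149 and 120 CPM, were with the low lines. Of 26 YAP and TEAD targets 9 were higher (34.6%) and 4 lower (15.4%), against 13.5% and 16% over all genes. Those counts include these neighbours, and became 1 higher and 2 lower with all 17 libraries in the fit. Among the lower members was Arhgef17, a guanine nucleotide exchange factor, at 208, 177 and 181 CPM in MSC, 91 and 56.2 CPM in Mut clones, 59.6 to 125 CPM in tumour lines and 0.392 and 1.11 CPM in KO clones. Without KO clone 2, 5 of the list were called higher.

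Some cell cycle genes rose. Of 46 tested, 16 were higher (34.8%) and 0 lower, against 13.5% and 16% over all genes. All 46 log2 differences were above 0, and the median was 0.85. Rrm2, a subunit of ribonucleotide reductase, rose from 162, 166 and 104 CPM to 340 and 391 CPM (1.35, SE 0.22, edgeR adjusted p = 0.0043), and Cdt1, which licenses replication origins, from 41.3, 55.4 and 33.6 CPM to 102 and 109 CPM. The count depended on single libraries: it was 8 without MSC 1, 5 without MSC 3, 4 without KO clone 1, 6 without KO clone 2, and 0 with all 17 libraries. Among the D cyclins and inhibitors of the cell cycle, 5 of 15 were higher (33.3%) and 6 lower (40%). Those counts became 2 and 0 with all 17 libraries in the fit. Cdk6 rose from 5.77, 10 and 5.57 CPM to 35.3 and 28.1 CPM, and Ccnd2, a D cyclin, fell from 415, 448 and 434 CPM to 53.5 and 117 CPM. Cdkn2a, the locus of p16 and ARF, fell from 452, 384 and 500 CPM to 237 and 197 CPM (-1.03, SE 0.20, edgeR adjusted p = 0.00873), and its neighbour Cdkn2b from 157, 138 and 191 CPM to 56.5 and 57.4 CPM. Of this list 2 were called higher without KO clone 1 and 3 without MSC 1, and 3 were called lower without KO clone 2.

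Of 42 direct p53 targets 8 were higher (19%) and 10 lower (23.8%), against 13.5% and 16% over all genes, with a median of -0.36. Cdkn1a, the inhibitor p21, was at 23.3, 21.6 and 11.1 CPM in MSC, 11.8 and 13.4 CPM in Mut clones and 155 and 134 CPM in KO clones. It rose by 2.96 against MSC (SE 0.30, edgeR adjusted p = 0.00075) and by 3.53 against Mut clones (SE 0.36, edgeR adjusted p = 0.000643). The tumour lines spanned 34.4 to 312 CPM, on both sides of the KO clones. Eda2r, a death-domain receptor, rose from at most 0.242 CPM to 15.3 and 15.4 CPM, beside 25.1 and 8.22 CPM in Mut clones. Ccng2, a cyclin that slows growth, fell from 64.8, 73.3 and 67.8 CPM to 25.4 and 19.5 CPM. Mdm2, the ubiquitin ligase for p53, was at 58.2, 65 and 50.4 CPM in MSC and at 60.4 and 68.3 CPM in KO clones (log2 difference 0.16, SE 0.17, edgeR adjusted p = 0.51). Without MSC 1, MSC 3 or KO clone 2, 4 targets were called higher, without KO clone 1, 5, and with all 17 libraries 2 were called higher and 0 lower.

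The remaining lists are read against the 13.5% higher and 16% lower over all genes. The fit of all 17 libraries called 0 ribosome biogenesis genes higher and 1 glycolysis and hypoxia gene lower. Ribosome biogenesis genes were higher for 7 of 32 and lower for 0, and glycolysis and hypoxia genes lower for 10 of 32 and higher for 2. Among the latter Ndrg1, a hypoxia target, rose from 39.3, 41.3 and 27.6 CPM to 175 and 205 CPM, and Pfkfb3, a driver of glycolysis, fell from 60.2, 67.2 and 62.4 CPM to 13.5 and 12.4 CPM. Of 26 sterol genes 1 was lower and 0 higher, under those shares in both directions. Unfolded protein and ATF4 stress genes had 6 of 27 higher and 4 lower, the antioxidant genes of NRF2 3 of 22 higher and 4 lower, and immediate early genes 2 of 20 higher and 4 lower. The shares of the NRF2 list, 13.6% and 18.2%, and of the immediate early list, 10% and 20%, were near those of all genes. Of 19 LIF and STAT3 response genes 4 were higher and 5 lower, and of 15 EMT factors and cadherins 2 and 6. Of 19 cancer stem cell markers 2 were higher and 5 lower, of 21 chemokines and cytokines 1 and 7, and of 7 pluripotency factors 1 and 1. The pluripotency shares, 14.3% in both directions, were near those of all genes. So were the shares called higher of the EMT list, 13.3%, and of the cancer stem cell list, 10.5%. Klf5, the pluripotency factor that rose, was at 3.76, 7.11 and 2.21 CPM in MSC and at 37.2 and 36.2 CPM in KO clones, and Klf2 fell from 93.3, 68 and 192 CPM to 10.2 and 7.64 CPM. Nes, nestin, a filament of progenitor cells, rose from 52.4, 155 and 11.8 CPM to 848 and 788 CPM. Without KO clone 1, 4 ribosome biogenesis genes were called higher and 6 glycolysis genes lower, and without KO clone 2, 3 and 4. The 4 and 5 calls of the LIF and STAT3 list became 2 and 1 without KO clone 1 and 2 and 0 without KO clone 2, and the cytokine calls became 8 higher and 4 lower without KO clone 2. Leaving out 1 library at a time gave 0 to 5 cancer stem cell markers higher (0 without MSC 1 or KO clone 1, 1 without KO clone 2, 4 without Mut clone 2, 5 without Mut clone 1) and 3 to 7 lower (3 without KO clone 1).

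The largest single losses were genes with a clear level in MSC and at most 1 count over the KO clones. Il1rn, the antagonist of interleukin-1, was at 141, 80.6 and 394 CPM in MSC, at least 1769-fold above KO clones, and at most 5.24 CPM in any clone or tumour line. Cyba, a subunit of the phagocyte oxidase, was at 42.4, 56.2 and 39.5 CPM in MSC and had no count in KO clones or Mut clones, though TL1 3a had 39 CPM. Nynrin and Mab21l2 were at 58.6, 40.8 and 72.3 CPM and at 51.7, 46.5 and 36.9 CPM in MSC, at least 485-fold and at least 378-fold above the KO clones. Srpx was at 29.1, 13 and 68.4 CPM in MSC and at most 0.21 CPM in every other library. Fbn2, a second fibrillin, was at 179, 103 and 213 CPM in MSC, with 1 count over the KO clones. Psd4, Pygl and Col15a1 also had no count in KO clones. Among the largest gains was R3hdml, at 0.167, 0 and 0.0763 CPM in MSC and 57.1 and 121 CPM in KO clones (ratio 1108, 95% counting interval 379 to 5376), which was at most 1.65 CPM in any tumour line. Loxhd1, a gene of hair cells, Ctrb1, a pancreatic protease, Stk32b and Ankrd2, a muscle stress gene, were also in this set.

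The Mut clones show which of these values were shared by clones that kept mutant p53. Lpl, Pitx1, Srpx, Ndn, Eya2, Sfrp1 and Cdh11 were far below MSC in both kinds of clone. Cdh11, a cadherin of stroma, was at 363, 355 and 804 CPM in MSC, 2.35 and 6.37 CPM in KO clones and 2.53 and 2.45 CPM in Mut clones. Other genes stood at opposite ends in the clones. Lrrn1, a leucine-rich membrane protein, was at 15, 4.12 and 0.534 CPM in MSC, 441 and 838 CPM in KO clones and 0 in Mut clones, and reached 80.9 CPM among tumour lines. Bves and Rbm24, genes of muscle membranes and splicing, and Cap2 also had no count in Mut clones, and were at 55.1 and 72.8, 111 and 62.4, and 175 and 69.2 CPM in KO clones. In the other direction Kcnab2, a potassium channel subunit, was at 2.26, 1.94 and 1.91 CPM in MSC, 286 and 146 CPM in Mut clones and 0 in KO clones. It was at 153 CPM in TL2 3, the library most like the Mut clones, and at most 23.5 CPM in the other lines. Lipo1 and Hmgcll1 had no count in KO clones and were at 29.1 and 19.4 and at 20.1 and 19.1 CPM in Mut clones.

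For a further set the KO clones lay on the MSC side of the Mut clones. The 10 genes with the strongest calls of this kind were chosen by both comparisons with Mut clones, and the difference between KO clones and MSC is the sum of those 2, so the values are a description with no test. Creb3l1, a factor of collagen secretion, was at 303, 257 and 254 CPM in MSC, 309 and 323 CPM in KO clones and 1.08 and 0.711 CPM in Mut clones. Its log2 difference between KO clones and MSC was 0.22 (SE 0.17). Vgll3, a TEAD cofactor, was at 159, 103 and 108 CPM in MSC, 158 and 236 CPM in KO clones and 0.0723 and 0 CPM in Mut clones, and the difference from MSC was 0.68 (SE 0.27). Tmem47, Daam2 and Elfn1 differed from MSC by 0.22, -0.28 and -0.34. Nrp1, Fam20a and Lphn2 lay between Mut clones and MSC, with differences from MSC of -1.33, -1.37 and -0.84.

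Myc and its neighbour Pvt1 on chromosome 15 belonged to the same set with high values in Mut clones. Myc, a driver of cell growth, was at 161, 148 and 181 CPM in MSC, 137 and 136 CPM in KO clones and 1758 and 1973 CPM in Mut clones. Against MSC the KO clones differed by -0.26 on the log2 scale (SE 0.16). The non-coding RNA Pvt1 was at 8.69, 10.4 and 10.4 CPM in MSC, 6.04 and 5.49 CPM in KO clones and 513 and 671 CPM in Mut clones, and KO clones differed from MSC by -0.77 (SE 0.20). Among tumour lines both genes were high only in TL2 3, at 1042 and 487 CPM, and TL1 3b, at 623 and 143 CPM, which are the libraries most like the Mut clones. In the other 8 lines Myc was at 94.6 to 233 CPM and Pvt1 at 9.22 to 19.2 CPM. Sox2, a pluripotency factor, was at 26.6 and 33.3 CPM in Mut clones and had 1 count or fewer in each MSC and KO clone library.

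**Figure D5:**
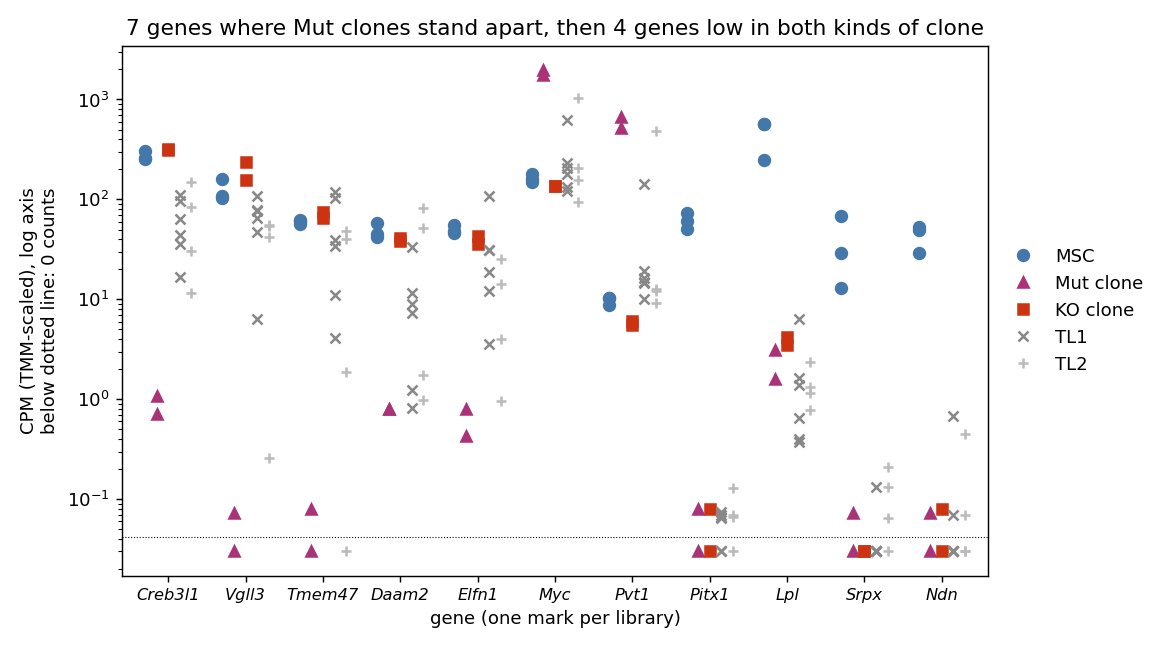
CPM in each library (vertical log axis, marks below the dotted line have 0 counts, 1 mark per library) of 7 genes for which Mut clones stand apart from MSC and KO clones, then of 4 genes low in both kinds of clone. KO clones (red squares) are at 309 and 323 CPM for Creb3l1, next to MSC at 254 to 303, while for Pitx1 both kinds of clone and all tumour lines are at or near 0.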

How the data were processed

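RNA sequencing libraries of 17 mouse cell samples were used, single-end with 60 nt reads per the labels' protocols. The authors deposited whole-number counts per gene. The submitters' processing notes name cutadapt, TopHat2 2.0.10, HTSeq 0.6.1p1, DESeq2 1.6.3 and mm10, without their roles; annotation and strand setting: not given in the sources used here. Groups came from the titles, and 4 further columns that matched no sample were not used. Of 23420 genes, 13008 passed filterByExpr over the 3 MSC, 2 Mut clone and 2 KO clone libraries and were tested with edgeR 4.0.16 (TMM, robust quasi-likelihood test, Benjamini-Hochberg adjusted p under 0.05) in R 4.3.3, after a test on simulated data. Printed CPM use TMM over all 17 libraries. Each SE was derived from the test, as the size of the log2 difference divided by the square root of the quasi-likelihood F statistic. The precision is that of 2 and 3 libraries at 12215025 to 15962341 counts, and intervals on ratios cover counting error only. Alternatives were DESeq2 1.42.0, limma-voom (limma 3.58.1), other scalings, filters and sample sets, and leaving out each library. The members and the 40 lists, and the promoter motifs, were chosen with earlier results of these data known. Genes were named by rule: Trp53, the 12 largest changes in each direction against MSC and the 10 largest against Mut clones (called, no overlap, mean of at least 10 CPM), for each list at most 4 called members, a set of 14 fixed genes, and the 10 genes with the strongest calls placing KO clones on the MSC side of Mut clones. Other genes are named as list members chosen after their values were seen. RefSeq names, positions and promoters (GRCm38.p6) matched 23259 symbols. Some genes that the rule names are not reported here.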

Additional observations from a re-analysis of the deposited data

How the results depend on the processing

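No paired analysis was possible because the clone libraries carry no replicate number in the labels. With all 17 libraries in the fit, 400 genes were called higher and 424 lower in KO clones than in MSC, 512 and 308 in KO clones than in Mut clones, and 981 and 1115 in Mut clones than in MSC, and the cause was not tested. Leaving out each library in turn gave 909 to 1878 higher and 1077 to 2020 lower for KO clones against MSC, with 1092 higher without MSC 1, 1167 without MSC 3, 979 and 1088 without KO clone 1, and 909 and 1077 without KO clone 2. For KO clones against Mut clones the ranges were 1299 to 2100 and 979 to 1805 (without Mut clone 2, 1299 and 1171, and 1153 and 979 lower without KO clones 1 and 2), and for Mut clones against MSC 1349 to 2401 and 1531 to 2804, lowest without Mut clone 2. Where this left a group with 1 library, that library was assumed to vary like the others. Named genes, too, could lose their call under other settings. Their adjusted p-values in the Results are those of the fit of 7 libraries alone. The difference in Acta2 between KO clones and MSC, -0.05, became 0.21 without MSC 1 (edgeR adjusted p = 0.899) 0.51 without KO clone 1 (edgeR adjusted p = 0.78) and -0.95 without KO clone 2 (edgeR adjusted p = 0.62). The other settings kept the counts of calls for KO clones against MSC within 1.5 times. Calls higher ran from 1664 with scaling by library totals to 2019 with DESeq2. Calls lower ran from 1931 without the filter on low counts to 2332 with DESeq2.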
